A study of Mus musculus with 6 samples.

Results

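The genes described here are 10 genes of protein folding in the endoplasmic reticulum (ER) and of the unfolded protein response (UPR): Hspa5, Hsp90b1, Pdia4, Pdia6, Calr, Canx, Xbp1, Dnajb9, Dnajc3 and Herpud1. They, like the further gene lists below, were chosen by their known roles, but with earlier results of these data known. They were matched by symbol to the gene identifiers of the count tables and are 10 of the 27179 genes counted. All 10 passed the filter on low counts that left 14069 genes for testing, with between 483 counts (Dnajb9) and 91205 counts (Hsp90b1) in a library. The mRNA was measured in 3 lines of mouse embryonic fibroblasts, each line giving 2 libraries from separate RNA preparations of growing cells. All 3 lines lack functional Cry1, Cry2, Per1, Per2, Nr1d1 and Nr1d2, the genes of the repressors of the circadian clock, and this parental line is called CPN-/-. Mouse Cry1 or Cry2 was added from a viral vector to give CPN-/- CRY1 and CPN-/- CRY2, whose values are also given as those with CRY1 or with CRY2, so that the exogenous CRY protein is driven by a viral promoter and not by the clock. Each of the CRY lines was grown from a single colony, so a difference between lines cannot be told apart from a difference between clones. The comparisons ask how the mRNA of the folding genes differs when CRY1 or CRY2 is present in cells without the other clock repressors.

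As background, proteins that enter the ER are held by the chaperones BiP (Hspa5) and GRP94 (Hsp90b1), receive disulfide bonds from isomerases such as those of Pdia4 and Pdia6, and, if they carry sugars, pass through the lectins calreticulin (Calr) and calnexin (Canx). When unfolded protein accumulates, the sensors IRE1 (Ern1), ATF6 and PERK (Eif2ak3) start the UPR. IRE1 splices the mRNA of Xbp1, and XBP1 and cleaved ATF6 then raise the transcription of chaperones and of genes for the removal of misfolded protein. Fibroblasts secrete much collagen and fibronectin and depend on this system. CRY proteins act as repressors of CLOCK-BMAL1, a factor that binds the E-box.

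ATF6 and XBP1 are known to act through the ER stress response element (ERSE), CCAAT and CCACG separated by 9 bases of any kind, and through the shorter ERSE-II. The 250 bases before the RefSeq start site of each gene (build GRCm38.p6) were searched on both strands for 4 motifs. These were ERSE (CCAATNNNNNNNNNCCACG), ERSE-II (ATTGGNCCACG), the UPR element TGACGTGG, known as UPRE, and the E-box CACGTG. The ERSE was found before 6 of the 10 genes, against 0.113% of all 32851 promoters in the reference, and ERSE-II before Herpud1, against 0.0304%. Because the 10 were chosen for known roles in folding and the UPR, this contrast is background and not a test. The boxes are shown because they are what most of the 10 genes share, each read 5′ to 3′ on the strand that holds it and with the fixed bases in capitals.
Hspa5: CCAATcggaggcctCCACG
Hsp90b1, far box: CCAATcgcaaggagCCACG
Hsp90b1, near box: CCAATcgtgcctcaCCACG
Pdia6: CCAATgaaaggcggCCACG
Calr: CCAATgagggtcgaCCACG
Canx: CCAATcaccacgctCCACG
Dnajc3: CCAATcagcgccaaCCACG
Herpud1: ATTGGgCCACG
The spacers of the 7 ERSE boxes held 6 or 7 G or C among their 9 bases. The ERSE-II of Herpud1, with a spacer of 1 base, ended 42 bases before the start, and the ERSE of Hspa5 ended 47 bases before it. The boxes of Dnajc3 (87 bases) and Pdia6 (80 bases) lay farther away, and Hsp90b1 held a box on either strand. Pdia4 and Xbp1 held none of the 4 motifs in this window. For Pdia4, Xbp1 and Dnajc3, the bases just after the RefSeq start were found in no GENCODE transcript of the gene, so their windows depend on the annotation of the start. The UPRE, found in 0.563% of all promoters, was not matched before the 10. The E-box was found before Calr and Dnajb9, and it was also found in 6.02% of all promoters.

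The promoters of 3 genes show how the matches lie, in lower case with the matches in capitals, each ending at the base before the start site. Hspa5 holds the ERSE closest to a start, Herpud1 holds the ERSE-II, and Calr holds both an E-box and an ERSE on the opposite strand.
Hspa5, chr2:34771840-34772089, plus strand: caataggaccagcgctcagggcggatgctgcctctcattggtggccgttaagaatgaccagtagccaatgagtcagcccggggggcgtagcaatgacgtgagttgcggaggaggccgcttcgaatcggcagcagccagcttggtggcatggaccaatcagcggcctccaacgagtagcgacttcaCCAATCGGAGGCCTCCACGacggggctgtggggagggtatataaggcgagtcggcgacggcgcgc
Herpud1, chr8:94386179-94386428, plus strand: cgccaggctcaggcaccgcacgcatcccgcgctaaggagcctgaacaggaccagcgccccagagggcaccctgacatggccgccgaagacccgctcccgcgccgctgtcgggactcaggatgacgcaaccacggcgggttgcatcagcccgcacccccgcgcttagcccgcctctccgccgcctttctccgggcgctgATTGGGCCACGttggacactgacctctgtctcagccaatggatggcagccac
Calr, chr8:84846932-84847181, minus strand: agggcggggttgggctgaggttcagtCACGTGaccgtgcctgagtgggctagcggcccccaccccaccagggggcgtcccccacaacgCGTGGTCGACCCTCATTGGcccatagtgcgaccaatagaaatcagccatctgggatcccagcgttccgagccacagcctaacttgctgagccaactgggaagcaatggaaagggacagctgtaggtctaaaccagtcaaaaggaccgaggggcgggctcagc

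**Figure D1:**
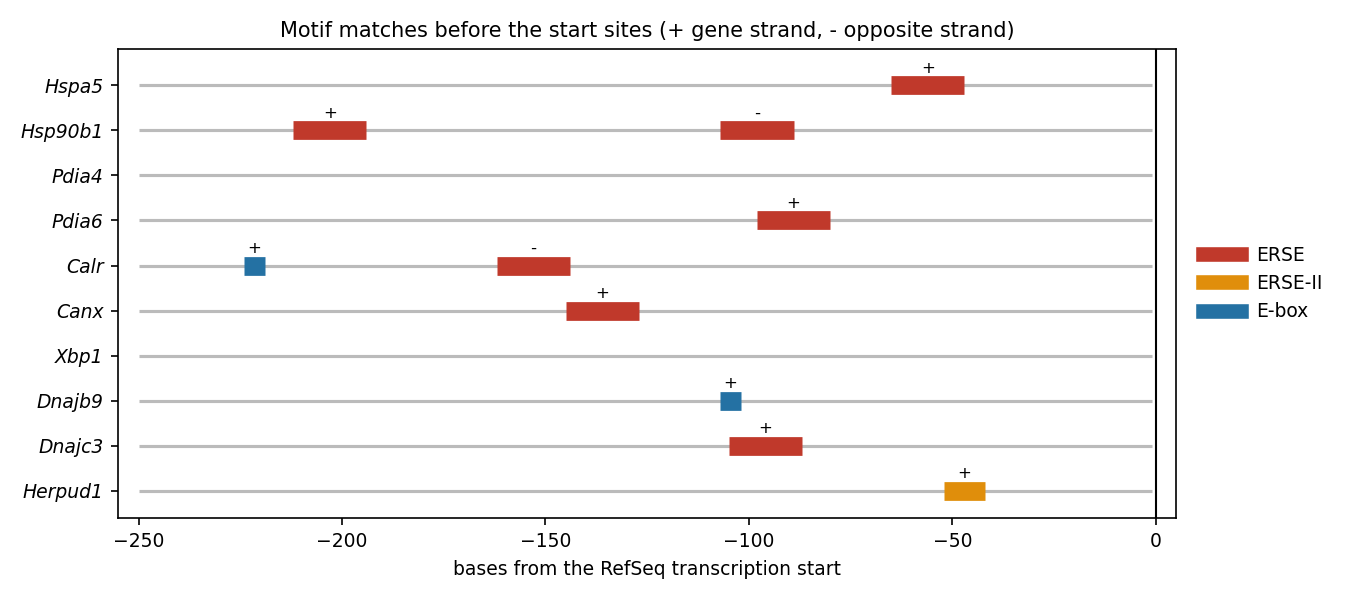
Matches to 3 motifs in the 250 bases before the RefSeq start of each of the 10 genes, with the distance from the start in bases on the horizontal axis and the strand above each bar. ERSE bars stand before 6 genes, Hsp90b1 has 2 of them, and the ERSE-II of Herpud1 and the ERSE of Hspa5 lie closest to the start.

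The libraries held between 25957409 and 36106949 counts. Levels are given as CPM, the count of a gene scaled by TMM to the same library total in all libraries. Between the replicates of one line, the difference had an SD of 0.44 on the log2 scale over all tested genes in CPN-/-, against 0.23 in CPN-/- CRY1 and 0.24 in CPN-/- CRY2. In CPN-/- this difference went with exon length (Spearman's rho = −0.683 over 12478 genes that share the same libraries), with longer genes lower in replicate 2. Cry1 was highest in the CPN-/- CRY1 libraries and Cry2 in the CPN-/- CRY2 libraries, although the knocked-out genes still gave counts in CPN-/-. The 8 fibroblast markers summed to between 10065 and 16620 CPM, with Thy1 at 1 to 7 counts, and the epithelial markers to at most 0.593 CPM, with Epcam at 0. Endothelial, blood and muscle markers summed to at most 1.00, 2.34 and 2.03 CPM. The p-values measure the spread between 2 RNA preparations of one clone, which may be largely technical. In such bulk libraries, a lower level per cell and fewer cells that express a gene cannot be told apart.

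Per kilobase of exon, Hsp90b1 was the highest of the 10 in CPN-/-, at 1027 ± 16.7 CPM (SD, n = 2). Calr followed at 592 ± 20.4, Hspa5 at 352 ± 16.6, Pdia6 at 263 ± 28.1 and Canx at 158 ± 24.0. Pdia4 (97.4 ± 2.83) and Herpud1 (90.1 ± 6.87) came next, and Xbp1 (32.9 ± 2.09), Dnajc3 (16.1 ± 2.35) and Dnajb9 (8.54 ± 1.42) were the lowest. The abundant chaperones and lectins thus stood above the regulators and cochaperones, and the libraries of neighbours in this order did not overlap in any of the 3 lines. Pdia4 and Herpud1 were nearly level in CPN-/-, where the lower Pdia4 library stood just above the higher Herpud1 library. They changed places in CPN-/- CRY2, in which Herpud1 read 79.1 ± 1.85 and Pdia4 75.8 ± 2.58. The 10 genes together summed to 7342 and 7369 CPM in CPN-/-, 6101 and 6390 with CRY1, and 6707 and 6005 with CRY2. Both libraries of each CRY line lay below both CPN-/- libraries in this sum, in which Hsp90b1, Hspa5 and Calr weighed most. The same held outside the 10 genes. The 13 cytosolic chaperones summed to 7891 and 8788 CPM in CPN-/-, 6933 and 7210 with CRY1, and 7644 and 7846 with CRY2. The 81 listed genes of the wider ER system summed to 15134 and 15229, 13344 and 13473, and 14499 and 13909 CPM.

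**Figure D2:**
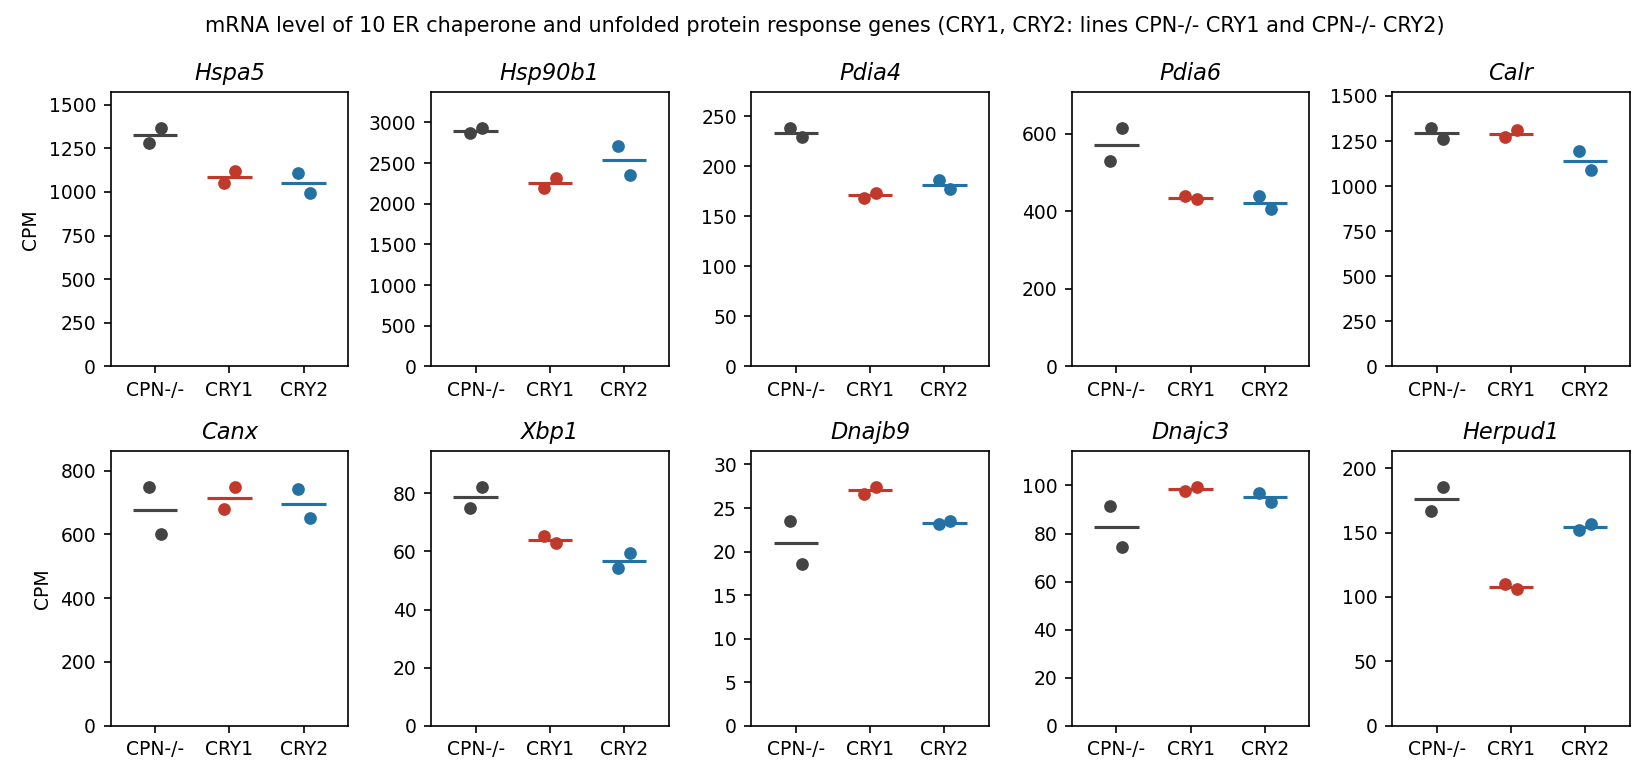
CPM of each of the 10 genes in the 6 libraries, with a point per library and a bar at the mean of each line; each panel has its own vertical axis from 0. The CPN-/- CRY1 points of Herpud1 stand apart from both other lines, those of Dnajb9 and Dnajc3 stand above CPN-/-, and those of Calr and Canx overlap with CPN-/-.

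In the CPN-/- CRY1 cell line, Herpud1, Pdia4 and Pdia6 were lower than in CPN-/-. Herpud1, an ER membrane protein of the complex that removes misfolded proteins, was 1.63-fold lower, and the isomerase genes Pdia4 and Pdia6 were 1.37-fold and 1.31-fold lower. The test was the quasi-likelihood test of edgeR, with p-values adjusted over the 14069 genes by Benjamini-Hochberg, and genes with an adjusted p under 0.05 were called. Of the 10 genes 3 were called, all 3 lower, against 24.3% of all tested genes called, 13.1% lower and 11.2% higher. The members' share of 30% is close to that of all genes. The median log2 fold change of the 10 was −0.29, against −0.0073 over all tested genes. Both CPN-/- CRY1 libraries lay below both CPN-/- libraries for 6 of the 10 and above them for 2, against 34.0% and 32.9% of all tested genes. The calls depended on single libraries, and so did those of all tested genes. With 1 library left out, the log2 fold change lay between −0.78 and −0.62 for Herpud1. It lay between −0.47 and −0.42 for Pdia4, and between −0.50 and −0.27 for Pdia6. With the trend on exon length removed from each library 7 of the 10 were called, 6 lower and 1 higher, and 5484 of all tested genes.

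In the CPN-/- CRY2 cell line, Xbp1, the transcription factor spliced by IRE1, was 1.38-fold lower than in CPN-/-. It was the 1 call among the 10 genes, against 6.66% of all tested genes called, 4.08% lower and 2.58% higher. The median log2 fold change of the 10 was −0.19, against −0.0076 over all tested genes. Both CPN-/- CRY2 libraries lay below both CPN-/- libraries for 7 of the 10 and above them for 1, against 27.2% and 28.0% of all tested genes. DESeq2's Wald test called 3 of the 10, adding Pdia4 and Pdia6. The calls depended on single libraries, and so did those of all tested genes. With 1 library left out, the log2 fold change of Xbp1 lay between −0.53 and −0.39. Both comparisons use the same CPN-/- libraries and are therefore not independent.

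The direct comparison of CPN-/- CRY1 with CPN-/- CRY2 asks whether the CRY lines differ from each other. It called 1 of the 10 genes, Herpud1, which was 1.43-fold lower in CPN-/- CRY1, against 16.3% of all tested genes called, 8.57% lower and 7.72% higher. The median log2 fold change of the 10 was 0.04, against −0.0046 over all tested genes. For the other 9 genes the log2 fold change lay between −0.17 and 0.21 and was not called. These calls, too, depended on single libraries, as did those of all tested genes. With 1 library left out, the log2 fold change of Herpud1 lay between −0.54 and −0.49.

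**Figure D3:**
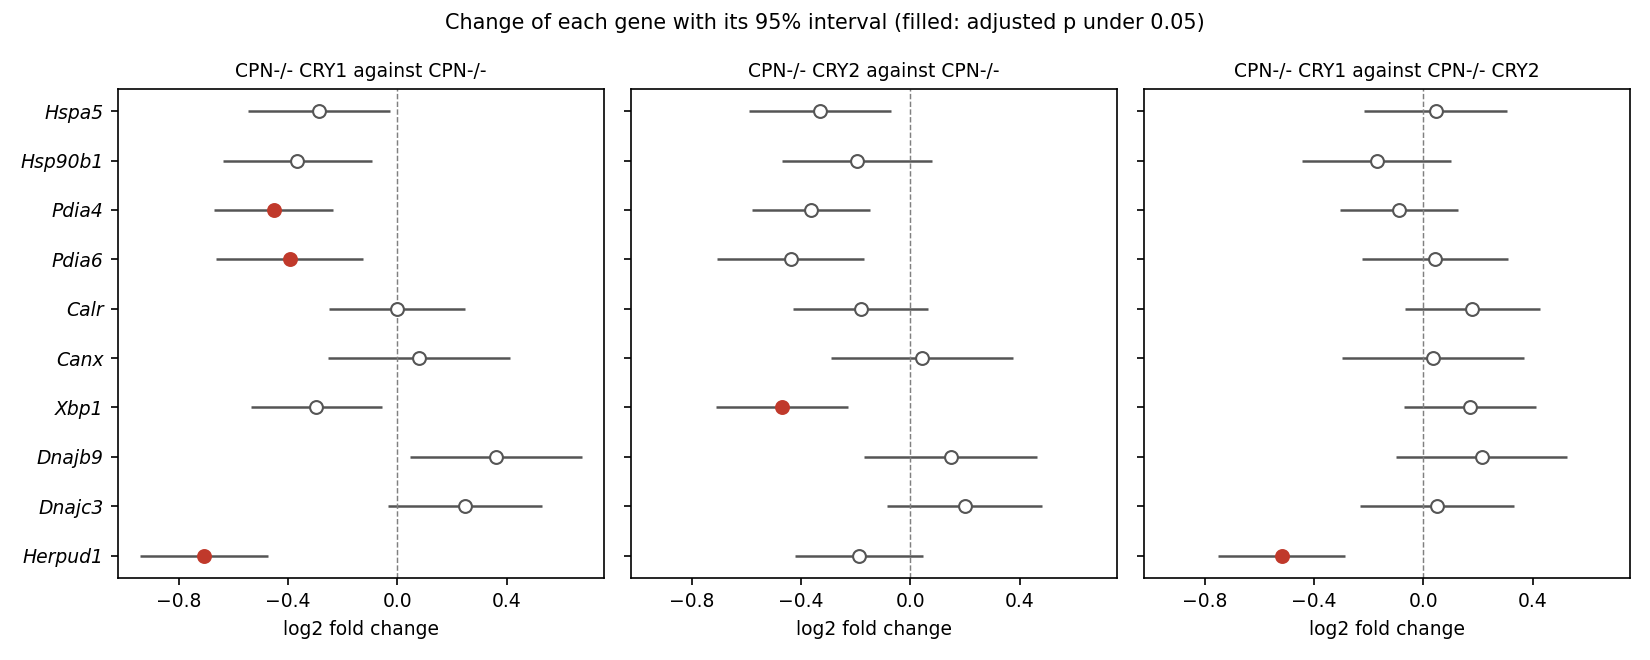
Log2 fold change of each of the 10 genes in the 3 comparisons, with the 95% interval of the edgeR fit as a bar and filled points for an adjusted p under 0.05. Filled points stand at Herpud1, Pdia4 and Pdia6 for CPN-/- CRY1, at Xbp1 for CPN-/- CRY2, and at Herpud1 between the CRY lines.

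Of the chaperones, Hspa5 (Entrez 14828, chr2:34772090-34776529, plus strand), the ER member of the HSP70 family that also holds the UPR sensors inactive, read 1279 and 1367 CPM in CPN-/-, 1051 and 1119 with CRY1, and 1109 and 995 with CRY2. All 4 libraries of the CRY lines lay below both CPN-/- libraries, and the CRY lines overlapped with each other. Against CPN-/- the log2 fold change was −0.29 (SE 0.11, 95% interval −0.55 to −0.03) in CPN-/- CRY1 and −0.33 (SE 0.11, −0.59 to −0.07) in CPN-/- CRY2. Neither was called, with adjusted p = 0.0983 and 0.135. Both were called without CPN-/- replicate 1 or replicate 2 and with the length trend removed.

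Hsp90b1 (Entrez 22027, chr10:86690841-86705444, minus strand), the ER member of the HSP90 family, read 2867 and 2934 CPM in CPN-/-, 2194 and 2311 with CRY1, and 2713 and 2355 with CRY2. The libraries of either CRY line lay below those of CPN-/-, and the CPN-/- CRY1 pair was the lowest. Its log2 fold change was −0.36 (SE 0.12, −0.64 to −0.09) in CPN-/- CRY1, with adjusted p = 0.0596, and −0.19 (SE 0.12, −0.47 to 0.08) in CPN-/- CRY2, with adjusted p = 0.329. Neither was called. The former was called by DESeq2 (adjusted p = 0.0266), with the length trend removed (0.0209) and without CPN-/- replicate 1 (0.000287) or replicate 2 (0.0019), and the latter without CPN-/- replicate 1 (0.0411). Other annotated genes, among them 1810014B01Rik, overlap 611 bases of its 2825 exon bases, and how reads of that stretch were counted was not tested.

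The cytosolic counterparts of these chaperones were compared as genes of the same families outside the ER. Hspa8, the constitutive cytosolic HSP70, had log2 fold changes of −0.05 (SE 0.10) in CPN-/- CRY1 and −0.12 (SE 0.10) in CPN-/- CRY2. Hsp90ab1 had −0.28 (SE 0.11) and −0.23 (SE 0.11), and Hsp90aa1 had −0.20 (SE 0.10) and 0.03 (SE 0.10). None of these 6 values was called. Of the 12 tested cytosolic chaperones, 1 (8.33%) was called in CPN-/- CRY1, against 24.3% of all tested genes. It was Cct5, a subunit of the chaperonin for actin and tubulin, at −0.83 (SE 0.17, adjusted p = 0.0149). For CPN-/- CRY2 edgeR called 0 of 12, with 1 at an unadjusted p under 0.05, and DESeq2 called 0. There, 1 was called higher with the length trend removed.

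Of the disulfide isomerases, Pdia4 (Entrez 12304, chr6:47796141-47813512, minus strand), also known as ERp72, read 239 and 229 CPM in CPN-/-, 169 and 173 with CRY1, and 186 and 177 with CRY2. The 3 lines did not overlap, with CPN-/- the highest and CPN-/- CRY1 the lowest. The log2 fold change was −0.45 (SE 0.09, −0.67 to −0.23, adjusted p = 0.0148) in CPN-/- CRY1, which was called. In CPN-/- CRY2 it was −0.36 (SE 0.09, −0.58 to −0.15, adjusted p = 0.0695), which was not called, and between the CRY lines it was −0.09 (SE 0.09, −0.31 to 0.13). The value in CPN-/- CRY2 was called by DESeq2 (0.0269), with the length trend removed (0.0483) and without CPN-/- replicate 1 (4.77e-05) or replicate 2 (2.69e-05). The call in CPN-/- CRY1 was lost without either CPN-/- CRY1 library (adjusted p = 0.156 and 0.141), without either CPN-/- CRY2 library (0.0633 and 0.063) and with only the 4 libraries compared (0.0599).

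Pdia6 (Entrez 71853, chr12:17266589-17284785, plus strand), or P5, an isomerase that also binds BiP, read 529 and 615 CPM in CPN-/-. It read 438 and 432 with CRY1, and 439 and 406 with CRY2. All 4 libraries of the CRY lines lay below both of CPN-/-, and the CRY lines overlapped. The log2 fold change was −0.39 (SE 0.11, −0.66 to −0.13, adjusted p = 0.0452) in CPN-/- CRY1, which was called, and −0.44 (SE 0.11, −0.71 to −0.17, adjusted p = 0.0742) in CPN-/- CRY2, which was not. The larger of these changes is thus the one that missed the threshold, and the log2 difference between the CRY lines was 0.04 (SE 0.11, −0.22 to 0.31). The value in CPN-/- CRY2 was called by DESeq2 (0.0167), with the length trend removed (0.0158) and without CPN-/- replicate 1 (2.12e-08) or replicate 2 (0.00086). The call in CPN-/- CRY1 was lost without any 1 of the 4 CRY libraries (adjusted p from 0.119 to 0.268) and with only the 4 libraries compared (0.118).

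The lectins Calr and Canx hold newly made glycoproteins until they are folded. Calr (Entrez 12317, chr8:84842088-84846931, minus strand) read 1324 and 1261 CPM in CPN-/-, 1271 and 1311 with CRY1, and 1193 and 1087 with CRY2. CPN-/- CRY1 overlapped with CPN-/-, and CPN-/- CRY2 lay below both. Its log2 fold change was −0.0012 (SE 0.10, −0.25 to 0.25) in CPN-/- CRY1, an interval of 0.842 to 1.19 as a ratio, and −0.18 (SE 0.10, −0.43 to 0.07) in CPN-/- CRY2. Canx (Entrez 12330, chr11:50293957-50325673, minus strand), the membrane-bound lectin, read 748 and 603 CPM in CPN-/-, 679 and 749 with CRY1, and 742 and 651 with CRY2. All 3 lines overlapped, and the log2 fold changes were 0.08 (SE 0.14, −0.25 to 0.41) and 0.04 (SE 0.14, −0.29 to 0.38). The difference between the CPN-/- libraries of Canx, −0.31 on the log2 scale, was larger than either value, and both were called without CPN-/- replicate 1 (0.24 and 0.21). Between the CRY lines, Calr (0.18, adjusted p = 0.305) was called with only the 4 CRY libraries (0.0225) and without CPN-/- replicate 1 (0.0208) or replicate 2 (0.0234).

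Xbp1 (Entrez 22433, chr11:5520641-5525993, plus strand) read 75.1 and 82.2 CPM in CPN-/-, 65.2 and 62.9 with CRY1, and 54.2 and 59.5 with CRY2. The 3 lines did not overlap, with CPN-/- CRY2 the lowest. The log2 fold change was −0.47 (SE 0.10, −0.71 to −0.23, adjusted p = 0.0431) in CPN-/- CRY2, which was called, and −0.30 (SE 0.10, −0.54 to −0.06, adjusted p = 0.0739) in CPN-/- CRY1, which was not. The CRY lines differed by 0.17 (SE 0.10, −0.07 to 0.41, adjusted p = 0.314), which was not called. It was called with only the 4 CRY libraries (0.0186) and without CPN-/- replicate 1 (0.0177) or replicate 2 (0.0187). The value against CPN-/- in CPN-/- CRY1 was called with the length trend removed (0.043) and without CPN-/- replicate 1 (4.57e-05) or replicate 2 (0.011). The call in CPN-/- CRY2 was lost without any 1 of the 4 CRY libraries (adjusted p from 0.149 to 0.413), with only the 4 libraries compared (0.148) and with at least 10 counts required in every library (0.052). These counts are of all Xbp1 mRNA and do not separate the form spliced by IRE1.

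The J-domain cochaperones gave values on the other side. Dnajb9 (Entrez 27362, chr12:44205897-44210068, minus strand), or ERdj4, which stimulates BiP and restrains IRE1, read 23.5 and 18.5 CPM in CPN-/-, 26.6 and 27.4 with CRY1, and 23.1 and 23.5 with CRY2. The CPN-/- CRY1 libraries lay above all 4 others, and CPN-/- CRY2 overlapped with CPN-/-. Dnajb9 had a log2 fold change of 0.36 (SE 0.13, 0.05 to 0.67, adjusted p = 0.0883) in CPN-/- CRY1 and 0.15 (SE 0.13, −0.17 to 0.46) in CPN-/- CRY2. Dnajc3 (Entrez 100037258, chr14:118937932-118981702, plus strand), or P58IPK, an inhibitor of PERK, read 91.4 and 74.3 CPM in CPN-/-, 97.6 and 99.4 with CRY1, and 97.0 and 93.2 with CRY2. All 4 libraries of the CRY lines lay above both of CPN-/-, with log2 fold changes of 0.25 (SE 0.12, −0.03 to 0.53, adjusted p = 0.163) and 0.20 (SE 0.12, −0.08 to 0.48, adjusted p = 0.335). None of these 4 values was called. The CPN-/- libraries of Dnajb9 and Dnajc3 were themselves apart by −0.34 and −0.30 on the log2 scale, replicate 2 being the lower, and without replicate 1 all 4 values were called. Dnajc3 has the longest exons of the 10 genes, at 5141 bases, and with the length trend removed its log2 fold change in CPN-/- CRY1 was 0.11 (adjusted p = 0.191). That of Dnajb9 was 0.43 in the same fit and was called (adjusted p = 0.0362). Between the CRY lines Dnajb9 had 0.21 (SE 0.13, −0.10 to 0.53, adjusted p = 0.334), which was not called. It gained the call under 3 of 16 alternatives, with values between 0.20 and 0.23 under all 16.

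Herpud1 (Entrez 64209, chr8:94386429-94395371, plus strand), whose protein HERP helps to assemble the ubiquitin ligase complex around HRD1, had the largest change of the 10. It read 166 and 185 CPM in CPN-/-, 110 and 106 with CRY1, and 152 and 157 with CRY2. The 3 lines did not overlap, and the CPN-/- CRY1 libraries stood well below the other 4. The log2 fold change was −0.71 (SE 0.10, −0.94 to −0.47, adjusted p = 0.0043) in CPN-/- CRY1 and −0.19 (SE 0.10, −0.42 to 0.04, adjusted p = 0.279) in CPN-/- CRY2, the latter called without CPN-/- replicate 1 (0.00081). The difference between the CRY lines was itself called, at −0.52 (SE 0.10, −0.75 to −0.28, adjusted p = 0.0151). Against CPN-/-, the call was kept under 14 of 16 alternatives and was lost without either CPN-/- CRY1 library (adjusted p = 0.062 and 0.0745), with log2 fold changes between −0.78 and −0.56 under all 16. The call between the CRY lines was lost without any 1 of the 4 CRY libraries (adjusted p from 0.127 to 0.176).

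Over the 6 libraries, the log2 CPM of Hspa5 went most closely with that of Pdia6 among the 10 genes (Pearson's r = 0.96), followed by Pdia4 (0.90), Hsp90b1 (0.84) and Xbp1 (0.83). Calr (0.60) and Herpud1 (0.56) went with it less closely, Canx had −0.18, and Dnajb9 (−0.67) and Dnajc3 (−0.76) went the other way. Among 11399 other genes that averaged 100 counts or more, the highest r were those of Akap7, an anchor of protein kinase A, and Sft2d1, a protein of vesicle transport, at 0.991 each. A gene without a symbol in the reference (Entrez 100861641) had 0.986, Ska3, a gene of the mitotic spindle, 0.985, and Pdia3, the isomerase that works with the lectins, 0.983. These values describe 6 libraries that fall into 3 lines, and the points share the difference between lines.

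The sensors that start the UPR were low and not called. Ern1 had means of 21.7 CPM in CPN-/-, 19.0 in CPN-/- CRY1 and 28.5 in CPN-/- CRY2, and its CPN-/- libraries, at 28.5 and 14.9, lay on either side of both CPN-/- CRY1 libraries. Eif2ak3 had means of 22.9, 23.4 and 25.5 CPM, and Atf6 of 71.2, 79.1 and 81.5. Of the 6 tested sensors and proteases, edgeR called 0 in each of the 3 comparisons, with 0 at an unadjusted p under 0.05, and DESeq2 called 0. With the length trend removed, 3 of them were called lower in CPN-/- CRY1.

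The 79 tested genes of the wider ER folding and quality control system do not include the 10. In CPN-/- CRY1 their rate of calls was close to that of all genes, but their calls leaned more to the lower side. There, 19 of 79 (24.1%) were called, against 24.3% of all tested genes, and the median log2 fold change was −0.10. Of the 19 calls 16 were lower and 3 higher. The lower side thus made up 84.2% of them, against 53.9% of the 3423 calls over all tested genes. In CPN-/- CRY2, 2 of 79 (2.53%) were called, 1 lower and 1 higher, against 6.66% of all tested genes, with a median of −0.11. Between the CRY lines 11 (13.9%) were called, against 16.3% of all tested genes, with 7 of them lower with CRY1 and 4 higher. In CPN-/- CRY1 the genes on chromosomes 3, 15, 16 and 19 were shifted together, with medians of −0.28, −0.36, 0.27 and 0.31 on the log2 scale. Creld2, Derl1, Sec62, Ssr2 and Syvn1 lie there, and 14 genes called, 12 lower and 2 higher, lie elsewhere; none of the 10 genes lies on these chromosomes. The number of calls in each of the 3 comparisons depended strongly on single libraries, as did that of all tested genes. The ranges for both are given side by side at the end.

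Of the 11 oxidative folding enzymes 3 (27.3%) were called with CRY1 and 1 (9.09%) with CRY2, against 24.3% and 6.66% of all tested genes. Ero1a, the oxidase that recharges the disulfide isomerases, fell in both CRY lines. It read 157 and 131 CPM in CPN-/-, 59.9 and 61.7 with CRY1, and 84.5 and 75.8 with CRY2, without overlap of the 3 lines. It was 2.37-fold lower in CPN-/- CRY1 (log2 −1.24, SE 0.12, adjusted p = 0.0012) and 1.80-fold lower in CPN-/- CRY2 (log2 −0.85, SE 0.12, adjusted p = 0.0093). P4hb, a disulfide isomerase and a subunit of collagen prolyl 4-hydroxylase, read 1055 and 1112 CPM in CPN-/-, 627 and 617 with CRY1, and 938 and 890 with CRY2. It was called in CPN-/- CRY1 (log2 −0.80, SE 0.10, adjusted p = 0.0027) and against CPN-/- CRY2 (log2 −0.56, SE 0.10, adjusted p = 0.0118), but not in CPN-/- CRY2 (log2 −0.24, SE 0.10). Tmx3, a membrane-bound isomerase, rose in CPN-/- CRY1 by 0.50 (SE 0.12). Pdia3 was not called in either CRY line, at −0.27 (SE 0.11) and −0.39 (SE 0.11).

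Among the other chaperones, Hyou1, which exchanges the nucleotide of BiP, had means of 225 CPM in CPN-/-, 168 in CPN-/- CRY1 and 197 in CPN-/- CRY2. Its log2 fold change of −0.42 (SE 0.13, adjusted p = 0.0518) in CPN-/- CRY1 just missed the threshold. Of the 13 genes of this list 2 (15.4%) were called in CPN-/- CRY1, both lower, against 24.3% of all tested genes. These were Sil1, the other exchange factor of BiP, at −0.55 (SE 0.10) and Creld2, an ER stress gene, at −0.64 (SE 0.15). In CPN-/- CRY2 edgeR called 0, with 4 at an unadjusted p under 0.05, and DESeq2 called 0. There, 2 were called lower with the length trend removed.

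Of the 18 ER-associated degradation genes, 4 (22.2%) were called in CPN-/- CRY1, 2 in each direction, close to the 24.3% of all tested genes. Syvn1, which codes for the ligase HRD1 that HERP binds, was higher at 0.55 (SE 0.09), with 55.3 and 56.0 CPM against 38.6 and 37.6 in CPN-/-, and Herpud2, the homologue of Herpud1, was higher at 0.49 (SE 0.10). Derl1 and Edem2 were lower, at −0.55 (SE 0.10) and −0.36 (SE 0.11). Herpud1 thus fell in a line in which Herpud2 and Syvn1 rose and Derl1 and Edem2 fell. Syvn1, on chromosome 19, and Derl1 lie on the chromosomes whose genes were shifted together. With CRY2, edgeR called 0 of the 18, with 2 at an unadjusted p under 0.05, and DESeq2 called 0. There, 1 was called higher with the length trend removed. Of the 18 genes of the translocon, signal peptidase and oligosaccharyltransferase, which bring proteins into the ER and attach their sugars, 6 (33.3%) were called in CPN-/- CRY1, all lower (Sec62, Ssr2, Spcs2, Rpn1, Rpn2 and Dad1), where 24.3% of all tested genes were called and 13.1% were called lower. Of these 6, Sec62 and Ssr2 lie on the shifted chromosomes. With CRY2, edgeR called 0 of the 18 genes of this list, with 2 at an unadjusted p under 0.05, and DESeq2 called 0. In that comparison 2 were called lower with the length trend removed. Of the 6 tested glycoprotein folding enzymes 1 (16.7%) was called in CPN-/- CRY2, against 6.66% of all tested genes. Uggt2, which returns misfolded glycoproteins to the lectins, rose there by 0.69 (SE 0.15). In CPN-/- CRY1 edgeR called 0 of these enzymes, with 2 at an unadjusted p under 0.05, and DESeq2 called 0. There, 2 were called lower with the length trend removed.

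The list of ATF4 and its targets, which act downstream of PERK and of other kinases of the same translation factor, was lower in CPN-/- CRY1 in 4 of its 7 genes (57.1%), against 13.1% of all tested genes called lower. Chac1, an enzyme that degrades glutathione, read 54.0 and 58.5 CPM in CPN-/-, 27.5 and 26.8 with CRY1, and 45.5 and 47.7 with CRY2. It was 2.07-fold lower in CPN-/- CRY1 (log2 −1.05, SE 0.10, adjusted p = 0.00092), and also lower there than in CPN-/- CRY2 (log2 −0.78, SE 0.10, adjusted p = 0.0033). Trib3, a pseudokinase that restrains ATF4, was 1.92-fold lower in CPN-/- CRY1 (log2 −0.94, SE 0.13). Asns, which makes asparagine, and Ppp1r15a, which restores translation, were lower at −0.80 (SE 0.12) and −0.73 (SE 0.20). Atf4 read 692 and 918 CPM in CPN-/- and 586 and 568 in CPN-/- CRY1, with a log2 fold change of −0.48 (SE 0.14, adjusted p = 0.052), and Ddit3, which codes for CHOP, had −0.32 (SE 0.16), so neither was called. With CRY2, edgeR called 0 of the 7, with 3 at an unadjusted p under 0.05, and DESeq2 called 1. There, 2 were called lower with the length trend removed. Chac1, Trib3 and Asns were called lower with CRY1 than with CRY2, 3 of 7 against 8.57% of all tested genes.

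**Figure D4:**
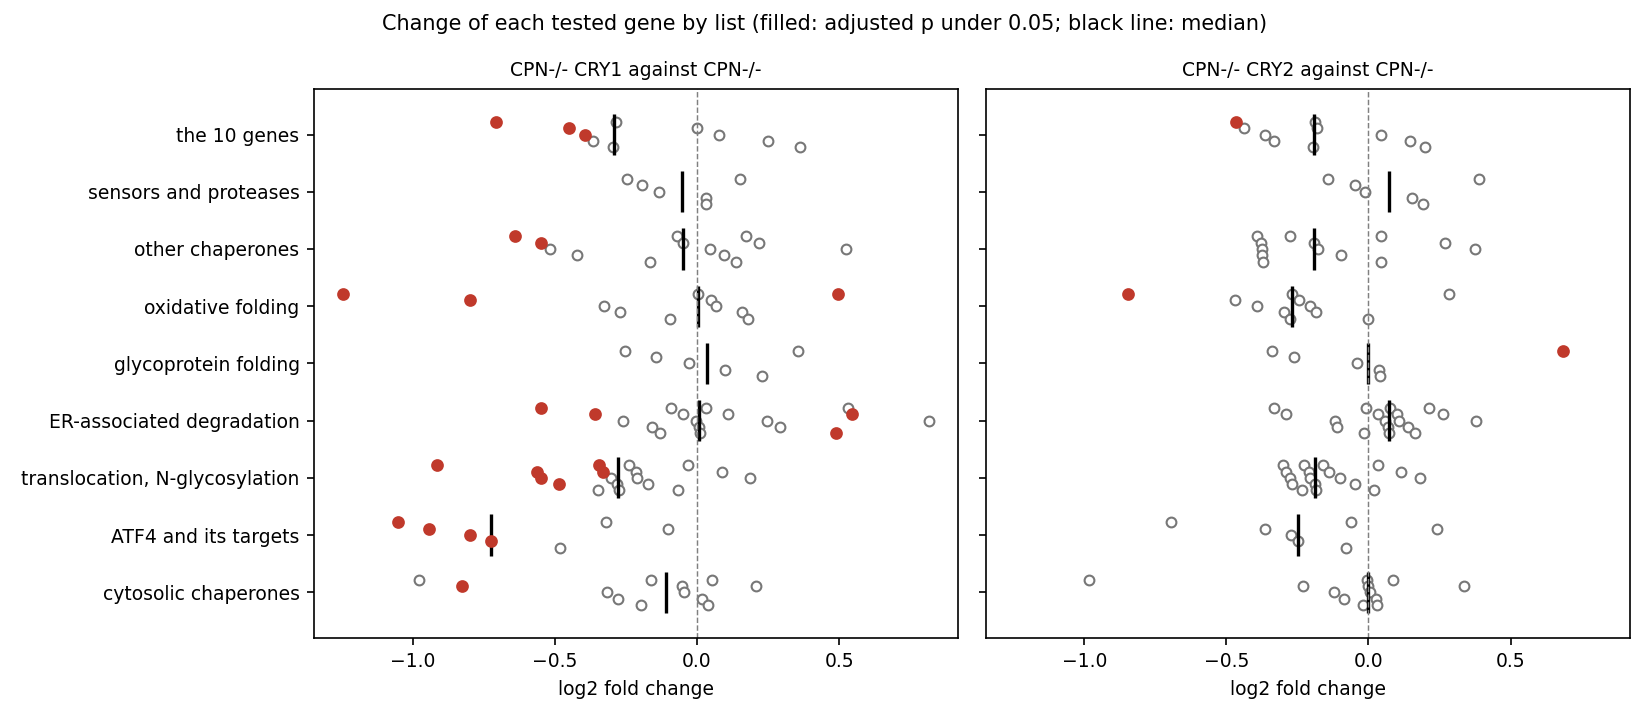
Log2 fold change against CPN-/- of each tested gene, by list, with filled points for an adjusted p under 0.05 and a black line at the median of each list. In CPN-/- CRY1 the filled points lie on both sides for degradation and oxidative folding and on the lower side for translocation and for ATF4 and its targets, while in CPN-/- CRY2 the filled points are those of Xbp1, Ero1a and Uggt2.

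In CPN-/- CRY1, the values of the genes with a promoter motif had both signs. Of the 7 genes with an ERSE or ERSE-II, Herpud1 and Pdia6 were called lower in CPN-/- CRY1, where 24.3% of all tested genes were called. Hspa5 (−0.29) and Hsp90b1 (−0.36) had negative values that were not called. Dnajc3 and Canx had positive values, and Calr a value near 0. Pdia4, without a match in a window that depends on the annotation of the start, was called lower too. Outside the 10, the 4 genes of the wider system with such a box included Creld2, called lower, and Syvn1, called higher. Of 12 further tested genes with a box 3 were called, 1 of them lower, again against 24.3% of all tested genes. In CPN-/- CRY2, 0 of the 7 genes were called, against 6.66% of all tested genes, and their median log2 fold change was −0.19. Between the CRY lines 1 of the 7 was called, against 16.3% of all tested genes, with a median of 0.04. An effect of the boxes was not tested. The genes with an E-box, Calr and Dnajb9, were not called in the 3 comparisons with all 6 libraries, with 1 exception. Dnajb9 was called higher in CPN-/- CRY1 with the length trend removed. Both genes were also called between the CRY lines under alternatives with fewer libraries. E-boxes outside the searched stretch before each start, such as those the paper places in an intron of Pdk1, were not sought. An effect of the E-box was not tested.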

How the data were processed

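RNA of CPN-/-, CPN-/- CRY1 and CPN-/- CRY2 fibroblasts (2 libraries per line, taken from the labels) was selected for poly(A), made into stranded libraries and sequenced in pairs. Per the labels and the study's methods, the authors aligned reads to mm10 with STAR and deposited raw counts per Entrez gene from featureCounts. The annotation and strand setting were not given in the sources used here. Totals of 25957409 to 36106949 counts set the precision of low genes.

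Genes were kept by filterByExpr (at least 10 counts, 15 in total), leaving 14069, scaled by TMM and tested in edgeR 4.0.16 (R 4.3.3) by the quasi-likelihood test over all 6 libraries with line as the only term. P-values were adjusted by Benjamini-Hochberg over all 14069 genes, and those under 0.05 were called. The SE was the log2 fold change divided by the root of F. DESeq2 1.42.0, other scalings and filters, the replicate block and each library left out were alternatives. The scripts were tested on simulated data. Symbols, promoters and positions came from RefSeq (GRCm38.p6, 25275 of 27179 identifiers matched), and near-identical transcripts (95% over 150 bases) were sought with BLAST+ 2.17.0.

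The 10 genes and the pathway lists were chosen with earlier results of these data known. Of the pathway lists, the text names Ern1, Eif2ak3, Atf6, Atf4, Ddit3, Hyou1, P4hb, Pdia3, the cytosolic counterparts Hspa8, Hsp90aa1 and Hsp90ab1, and, per comparison with CPN-/-, the 3 largest calls in each direction with 100 counts or more on average and 1 direction in all pairs of libraries. The 5 genes most like Hspa5 were named by Pearson's r. Other list genes named to account for a count were chosen after their values were seen.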

Additional observations from a re-analysis of the deposited data

Results flagged for a closer look

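Herpud1 differed between the CRY lines by a test of the difference itself: its log2 level in CPN-/- CRY1 minus that in CPN-/- CRY2 was −0.52 (SE 0.10), with adjusted p = 0.0151 by edgeR's quasi-likelihood test. Both CPN-/- CRY1 libraries, at 110 and 106 CPM, lay below both CPN-/- CRY2 libraries, at 152 and 157 CPM. The call was lost without any 1 of the 4 CRY libraries, with adjusted p from 0.127 to 0.176.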

How the results depend on the processing

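The 30 log2 fold changes of the 10 genes were each recomputed under 16 alternatives, of which 395 values kept their direction and side of the threshold, 28 lost the call, 39 gained one and 18 turned in sign. In CPN-/- CRY1, the calls among the 10 genes (3), the 79 pathway genes (19) and all genes (3423) became 1, 11 and 1798 with only the 4 libraries compared, 7, 37 and 5484 with the length trend removed, and 1, 8 and 1184 at an adjusted p under 0.01. Leaving out 1 library gave 0 to 9, 2 to 56 and 663 to 8980. In CPN-/- CRY2, they (1, 2 and 937) became 0, 1 and 583 with at least 10 counts in every library, 0, 1 and 473 with 4 libraries, 4, 15 and 2142 with the length trend removed, and 0, 1 and 363 at an adjusted p under 0.01. DESeq2 called 3 and 5, and without the filter 4 pathway genes were called. Leaving out 1 library gave 0 to 9, 0 to 51 and 199 to 8046. Between the CRY lines, they (1, 11 and 2292) became 4, 47 and 6838 with 4 libraries and 0, 2 and 854 at an adjusted p under 0.01, and with the length trend removed 31 pathway genes and 4457 in all were called. Leaving out 1 library gave 0 to 4, 0 to 47 and 475 to 6897, the lone library being assumed to vary like the other lines. Without the shifted chromosomes, an alternative chosen after seeing the data, 6 pathway genes were called.

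The replicate numbers were only numbers, since the differences of same-numbered libraries correlated at −0.0791, 0.141 and −0.0296. With the replicate block, 2 of the 10 genes were called in CPN-/- CRY1, Pdia6 losing its call (adjusted p = 0.0576), and 0 in CPN-/- CRY2, Xbp1 losing its own (0.0537).

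Apart from Dnajb9 in CPN-/- CRY2 (0.15), the values that turned in sign lay between −0.0012 and 0.079. Calr in CPN-/- CRY1 (−0.0012) became 0.0048 with DESeq2 size factors, 0.0070 without the filter, 0.0096 in DESeq2, 0.00080 with 4 libraries, 0.11 with the length trend removed and −0.029 to 0.035 without 1 library. Canx in CPN-/- CRY1 ranged from −0.061 to 0.24 without 1 library, the negative value without CPN-/- replicate 2. In CPN-/- CRY2, Canx became −0.024 with the length trend removed and ranged from −0.095 to 0.21 without 1 library, negative without CPN-/- replicate 2 or CPN-/- CRY2 replicate 1, and Dnajb9 ranged from −0.0032 (without CPN-/- replicate 2) to 0.33. Between the CRY lines, the values without 1 library ranged from −0.059 to 0.13 for Canx, from −0.035 to 0.13 for Hspa5 and from −0.015 to 0.10 for Pdia6, negative without CPN-/- CRY2 replicate 2 and, for Canx, also without CPN-/- CRY1 replicate 2. The cause of these changes was not tested. The 10 genes had at least 483 counts in every library.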
